A study of Saccharomyces cerevisiae with 32 samples.

Results

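The natural yeast isolates CMP and CQC were compared gene by gene, in messenger RNA and in the mRNA fragments protected by ribosomes (footprints). The pair was selected on measured expression in these same libraries, which put the isolates in differing respiratory states, so respiratory genes are described here without a test. The comparison rests on 8 of the 32 libraries of the series, which covers 8 isolates with 2 mRNA libraries and 2 footprint libraries each. CMP and CQC are both natural isolates of Saccharomyces cerevisiae labelled as wild type, and were both grown in synthetic complete (SC) medium. No treatment or time separates them, so genetic background is the labelled difference. Nothing in the labels says whether the replicates came from different cultures. The p-values therefore cover the spread between libraries, which may be technical.

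Budding yeast makes energy by fermenting sugar to ethanol through glycolysis, or by oxidising pyruvate, ethanol, acetate and fats in mitochondria. The respiratory chain joins subunits encoded in the nucleus with a few encoded in mitochondrial DNA, and the ATP synthase uses the proton gradient that the chain builds. Glucose represses most respiratory genes, and the Hap2-Hap3-Hap4-Hap5 activator drives many of them when glucose is scarce, while ribosomal protein genes follow growth.

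The mRNA libraries of CMP held 6128168 and 5783279 reads on 6696 open reading frames, and those of CQC held 7005423 and 6181057. Footprint libraries were far shallower, with 145164 and 99809 reads in CMP and 249004 and 275549 in CQC. Levels are given as counts scaled to a total of 1000000 reads on open reading frames (CPM), so levels of different genes should not be ranked against each other. Log2 fold changes are CMP over CQC with the standard error (SE) of edgeR's fit, from 2 libraries an isolate. A gene is said to have risen or fallen in CMP where edgeR's quasi-likelihood test gave a Benjamini-Hochberg adjusted p under 0.05 over all genes tested. In these bulk samples, fewer cells of a kind and less RNA per cell cannot be told apart.

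Differences between the isolates were broad. Of 6269 genes tested in mRNA, 58.9% differed: 1970 (31.4%) rose in CMP and 1721 (27.5%) fell, with a median log2 fold change of 0.11. Of 5347 tested in footprints, 28.4% differed: 747 (14.0%) rose and 773 (14.5%) fell, with a median of 0.10. Counts of list members that rose or fell below are to be read beside these shares. Among 5337 genes tested in both assays, 1209 were called in the same direction in both. That is 34.9% of the mRNA calls and 79.6% of the footprint calls, and 40 genes were called in opposite directions. Translation efficiency (TE), the ratio of footprints to mRNA, differed for 8.0% of 5337 genes: 168 (3.15%) rose and 259 (4.85%) fell, with a median log2 difference of -0.07. TE differences followed coding length, with medians of -0.62, -0.34, -0.18, 0.17 and 0.49 over 5 equal groups of genes from shortest to longest. In mRNA the medians of the same groups were 0.48, 0.17, 0.03, -0.09 and -0.05. With the length trend removed, 2.47% differed in TE, 74 genes (1.39%) upward and 58 (1.09%) downward, so TE values below are also given with the trend removed. Footprint calls moved less, to 592 genes higher (11.1%) and 838 lower (15.7%), 26.7% in all. Libraries of the isolates did not overlap for 44.2% of genes with CMP above and 36.1% with CMP below in mRNA, and for 35.7% and 26.6% in footprints. The TE counts also moved with scaling, to 134 higher and 423 lower with size factors by relative log expression, and with single libraries. They were 34 higher and 64 lower without the second library of CMP, 95 and 143 without its first, and 62 and 61 without the first library of CQC. Without the second library of CQC, the numbers were 117 and 274.

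Markers of mating type and of haploid cells were low in both isolates. Of the 4 measured genes specific to MATa cells, none rose and STE2, the alpha-factor receptor, fell (5.38 and 2.77 CPM in CMP, 9.56 and 8.57 CPM in CQC), a call that did not hold when either CQC library or the second CMP library was left out. Of 3 specific to MATalpha cells, STE3, the a-factor receptor, fell (2.28 and 3.29 CPM in CMP, 14.4 and 10 CPM in CQC). Of 12 genes shared by haploids none rose and 2 fell (16.7%) in mRNA, against 31.4% and 27.5% of all genes. In footprints 2 of the 7 tested rose (28.6%, against 14.0% of all genes) and none fell. Their footprint median was 1.89, or 0.51 with the 3 genes that had no read in an isolate at their bound. Their summed footprints were 0.0262% and 0.0321% in CMP and 0.00361% and 0.00944% in CQC. The mRNA of the MATa list summed to 0.00357% and 0.0031% of reads in CMP, against 0.00517% and 0.00372% in CQC. The MATalpha list summed to 0.000734% and 0.00118% in CMP and 0.00211% and 0.00163% in CQC. Sporulation genes summed to 0.0127% and 0.0158% in CMP and 0.0697% and 0.0752% in CQC. Of 22 sporulation genes tested in mRNA, 1 rose and 5 fell, with a median of -0.31, so falls were no more frequent (22.7%) than over all genes (27.5%). In footprints 2 of the 7 tested fell (28.6%, against 14.5% of all genes) and none rose. Their summed footprints were 0.0193% and 0.0271% in CMP and 0.334% in both CQC libraries, above the other 6 isolates (at most 0.0177%). SPS100, a spore wall gene, dominated both sums in CQC. Its mRNA had 4 reads in each library of CMP (0.653 and 0.692 CPM) and 498 and 576 CPM in CQC. Its footprints stood at 89.6 and 50.1 CPM in CMP and at 3217 and 3165 CPM in CQC, with no overlap in either assay. Whether sporulating cells contribute to other differences was not tested.

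Reads on the mitochondrial genome took 11.9% and 11.4% of the mRNA libraries of CMP and 21.3% and 19.2% of those of CQC. CQC had the largest share of the 8 isolates, and the mean of CMP (11.7%) lay beside that of BAN (11.8%), above the 5 others. Mitochondrial frames drew only 16 and 25 footprint reads in CMP and 14 and 53 in CQC, too few for a comparison by gene.

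**Figure D1:**
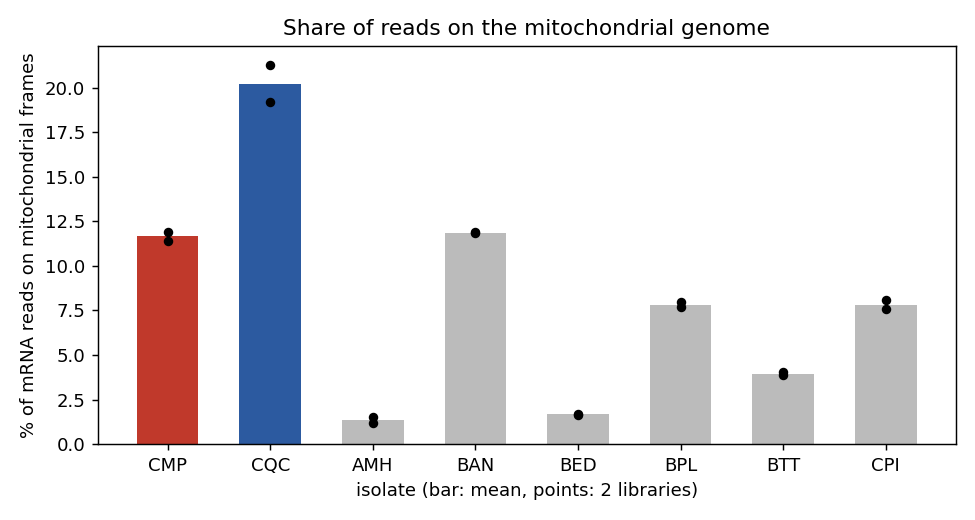
Share of mRNA reads on mitochondrial frames (percent, vertical axis) in each isolate, with CMP in red, CQC in blue and the other 6 isolates in grey; bars are means and points are the 2 libraries. CQC stands at 20.2% on average and CMP at 11.7%, beside 1.34% to 11.8% in the others.

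Of the 8 protein genes of mitochondrial DNA, 7 were lower in CMP, with a median log2 fold change of -0.76. COX1, the core subunit of cytochrome c oxidase (mitochondrial DNA, 13818 to 26701, R64 assembly), had 11681 and 9920 CPM in CMP and 33172 and 31232 CPM in CQC (log2 fold change -1.60 ± 0.24 SE). VAR1, the ribosomal protein that mitochondria make themselves, had 1719 and 1531 CPM in CMP and 5428 and 4844 CPM in CQC (-1.68 ± 0.16). For both genes the isolates did not overlap. COX2, another oxidase core subunit, differed by -1.19 ± 0.19, ATP6, of the synthase's proton channel, by -1.0 ± 0.19, and COB, cytochrome b, by -0.52 ± 0.15. ATP8, beside ATP6 in the synthase, differed by -0.37 ± 0.14. COX3, the third oxidase core subunit, was nearly level (-0.05 ± 0.20). OLI1, the ring subunit of the synthase, had 6388 and 7652 CPM in CMP and 5831 and 6646 CPM in CQC (0.15 ± 0.22), and these libraries overlapped.

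Frames within the introns of COX1 split. AI3 and AI4 were lower in CMP (both -2.31), whereas AI2 had 17530 and 17029 CPM in CMP and 3202 and 2756 CPM in CQC (2.52 ± 0.20). AI1 had 927 and 782 CPM in CMP and 3203 and 2756 CPM in CQC, which made AI1 and AI2 nearly equal in CQC and far apart in CMP. These frames start at the same base and share exons, so their reads are not separate measurements.

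Nuclear genes of the chain went a different way in mRNA than in footprints. Taking the 45 genes of complexes II to IV, the ATP synthase, cytochrome c and the NADH dehydrogenases together, 38 were higher in CMP in mRNA (median 0.70) and 34 were lower in footprints (median -0.35). Their median length value was 138. The shortest length group of all genes (16 to 215) had medians of 0.48 in mRNA and -0.05 in footprints. CMP had the highest mRNA level of all 8 isolates for 22 of the 45, and CQC for 3. In footprints CMP was highest for 11 and CQC for 31. Over all genes tested, CMP was highest for 6.03% in mRNA and 18.4% in footprints, and CQC for 17.6% and 25.1%. The TE difference was negative for 44 of the 45, with a median of -1.03, or -0.72 with the length trend removed.

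The ATP synthase showed this split most plainly. All 17 nuclear genes were higher in CMP in mRNA (median 1.26, none overlapping between the isolates), while their footprints had a median of -0.02, with 8 higher and 9 lower. Summed, they took 1.40% and 1.54% of mRNA reads in CMP and 0.670% and 0.776% in CQC. The same genes took 1.32% and 1.29% of footprints in CMP and 1.25% and 1.31% in CQC. STF2, a factor that steadies the synthase's inhibitor, had 766 and 960 CPM of mRNA in CMP and 192 and 216 CPM in CQC (2.07 ± 0.35). Its footprints, at 234 and 301 CPM in CMP and 229 and 240 CPM in CQC, overlapped. ATP17, a membrane subunit, had 918 and 1189 CPM of mRNA in CMP and 292 and 290 CPM in CQC (1.84 ± 0.20), with a footprint difference of 0.30 ± 0.22. ATP16, the delta subunit of the central stalk, differed by 1.57 ± 0.16 in mRNA and -0.02 ± 0.22 in footprints. ATP7, of the peripheral stalk, had the largest footprint difference of the 17 (1.78 ± 0.19 in mRNA, 1.21 ± 0.21 in footprints). Its footprints were 668 and 701 CPM in CMP and 257 and 276 CPM in CQC. ATP14, also of that stalk, differed by 1.76 ± 0.16 in mRNA and 0.56 ± 0.25 in footprints.

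Complex III, the cytochrome bc1 complex, was close to level in mRNA (9 genes, median 0.28) and lower in CMP in footprints (8 of 9, median -0.79). QCR10, a small accessory subunit, was the exception, at 1.17 ± 0.26 in mRNA and 0.43 ± 0.20 in footprints. QCR7, a subunit needed for assembly, had 1768 and 1947 CPM of mRNA in CMP and 1410 and 1613 CPM in CQC. Its footprints were 799 and 781 CPM in CMP and 1618 and 1386 CPM in CQC (-1.08 ± 0.19). The libraries stood apart in both assays, on opposite sides. The core subunits QCR2 and COR1 differed by 0.81 ± 0.17 and 0.29 ± 0.16 in mRNA and by -0.48 ± 0.20 and -0.59 ± 0.21 in footprints. QCR6, the acidic hinge subunit, gave 0.64 ± 0.17 in mRNA and -0.71 ± 0.25 in footprints. The median TE difference of the 9 genes was -0.99, or -0.80 with the length trend removed.

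Complex IV, cytochrome c oxidase, was similar: of 10 nuclear genes 8 were higher in CMP in mRNA (median 0.57) and all 10 were lower in footprints (median -0.48). Their median TE difference was -1.08, or -0.54 with the length trend removed. COX8, COX9, COX7 and COX12, small structural subunits, differed by 1.03, 0.86, 0.78 and 0.77 in mRNA and by -0.03, -0.44, -0.55 and -0.17 in footprints. COX5B, the isoform of subunit Va used at low oxygen, stood apart from these. It had 94.6 and 105.5 CPM of mRNA in CMP and 288 and 297 CPM in CQC (-1.56 ± 0.31). In footprints it had 7 and 0 reads in CMP and 56 and 61 in CQC.

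Complex II, succinate dehydrogenase, was divided among its subunits. SDH2, the iron-sulfur subunit, had 538 and 537 CPM of mRNA in CMP and 686 and 904 CPM in CQC (-0.59 ± 0.18). Its footprints stood at 572 and 411 CPM in CMP and at 2064 and 2250 CPM in CQC (-2.27 ± 0.22). The membrane anchor SDH4 differed by -1.03 ± 0.17 in mRNA and -2.08 ± 0.21 in footprints. The other anchor, SDH3, went the other way, at 1.35 ± 0.18 in mRNA and 0.39 ± 0.22 in footprints, and the flavoprotein SDH1 gave 0.54 ± 0.21 and -0.05 ± 0.25. The external NADH dehydrogenases, which pass electrons from cytosolic NADH, also parted in mRNA. NDE1 had 734 and 635 CPM in CMP and 274 and 375 CPM in CQC (1.05 ± 0.22), whereas NDE2 had 20.7 and 15 CPM in CMP and 106 and 123 CPM in CQC (-2.70 ± 0.23). The cytochrome c isoforms CYC1 and CYC7 differed by 0.42 ± 0.25 and -0.11 ± 0.26.

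**Figure D2:**
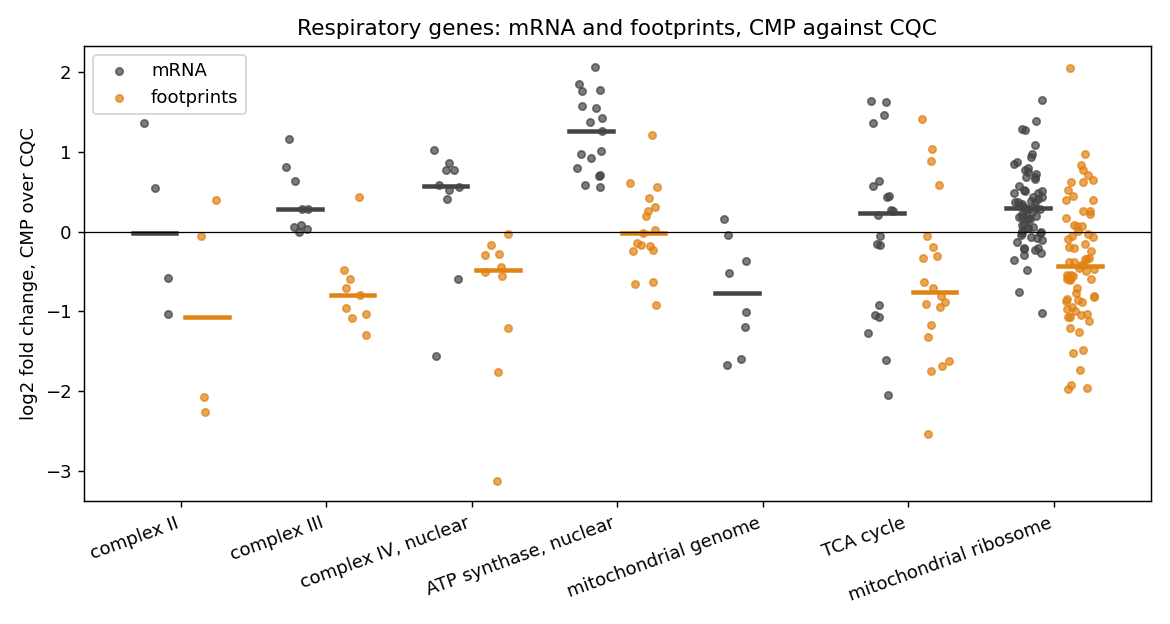
Log2 fold changes (CMP over CQC, vertical axis) of respiratory genes by group, in mRNA (grey) and footprints (orange); each point is a gene, bars are group medians, and mitochondrial genes are shown for mRNA only. ATP synthase genes are all above 0 in mRNA (median 1.26) and spread around 0 in footprints (median -0.02), and those of complexes II, III and IV lie mostly below 0 in footprints.

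The tricarboxylic acid (TCA) cycle, which feeds the chain, was mixed in mRNA (11 of 20 higher, median 0.24) and mostly lower in CMP in footprints (16 of 20, median -0.76). ACO1, aconitase (chromosome XII, 735212 to 737548), had 786 and 669 CPM of mRNA in CMP and 2810 and 3112 CPM in CQC (-2.05 ± 0.16). Its footprints stood at 1075 and 541 CPM in CMP and at 4241 and 4333 CPM in CQC (-2.53 ± 0.25). LAT1, the acetyltransferase of pyruvate dehydrogenase, differed by -1.61 ± 0.15 and -1.75 ± 0.22 in mRNA and footprints. LPD1, the lipoamide dehydrogenase that several of these complexes share, had 257 and 229 CPM of mRNA in CMP and 76.7 and 78.3 CPM in CQC (1.63 ± 0.14, footprints 0.88 ± 0.21). LSC1, of succinyl-CoA ligase, gave 1.62 ± 0.16 and 1.03 ± 0.31. MPC2, of the mitochondrial pyruvate carrier, was higher in mRNA alone (1.46 ± 0.30, footprints -0.33 ± 0.27).

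Among carriers of the inner membrane, MIR1, which imports phosphate for ATP synthesis, repeated the pattern of the synthase. It had 532 and 495 CPM of mRNA in CMP and 139 and 155 CPM in CQC (1.79 ± 0.18), with footprints of 1757 and 1683 CPM in CMP and 1614 and 1691 CPM in CQC. Its TE difference was -1.84 ± 0.23, or -1.64 with the length trend removed. AAC1, a minor ADP/ATP carrier, differed by -1.87 ± 0.25 in mRNA and -1.79 ± 0.36 in footprints, and OAC1, the oxaloacetate carrier, by 1.87 ± 0.18 and 2.73 ± 0.58. Of 44 genes for assembly and expression of the chain, 22 were higher and 22 lower in mRNA (median 0.01). COX15, which makes heme A for the oxidase, had 577 and 529 CPM of mRNA in CMP and 1508 and 1625 CPM in CQC (-1.52 ± 0.17), and COX17, a copper chaperone for the oxidase, differed by 1.84 ± 0.23. Mitochondrial ribosomal proteins were a little higher in CMP in mRNA (52 of 70, median 0.29) and lower in footprints (50 of 70, median -0.44). These genes are short (median length value 228.5). The 2 shortest length groups of all genes had medians of 0.48 and 0.17 in mRNA and -0.05 each in footprints.

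Of 9 regulators of respiration, 8 had a negative difference in mRNA, with a median of -0.61. HAP4, the limiting subunit of the activator (chromosome XI, 232227 to 233891), had 1032 and 901 CPM of mRNA in CMP and 1526 and 1383 CPM in CQC (-0.61 ± 0.27). Its footprints were 455 and 401 CPM in CMP and 1036 and 965 CPM in CQC (-1.37 ± 0.22), and neither assay overlapped. The other 6 isolates ranged from 89.7 to 1059 CPM in HAP4 mRNA, so CMP lay within their range and CQC above it. HAP2, a DNA-binding subunit, differed by -1.23 ± 0.23 in mRNA, HAP3 by 0.73 ± 0.17 and HAP5 by -0.28 ± 0.19. HAP1, the heme-responsive activator, was level in both assays (0.00 ± 0.17 and 0.03 ± 0.30).

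Glycolytic genes were far higher in CMP. Of 20 genes, 18 rose and none fell in mRNA (median 2.47), against a background of 31.4% of all genes rising. In footprints 17 rose and 1 fell (median 1.90), against 14.0% rising over all genes. They took 2.37% and 2.68% of mRNA reads in CMP and 0.318% and 0.357% in CQC. CQC had the lowest mRNA of the 8 isolates for 18 of the 20, and CMP for none, where CQC was lowest for 27.5% and CMP for 6.56% of all genes tested. ENO2, an enolase (chromosome VIII, 451327 to 452640), had 1111 and 1357 CPM of mRNA in CMP and 6.42 and 11 CPM in CQC. Its log2 fold change was 7.14 ± 0.27 (edgeR adjusted p = 1.3e-10). In footprints it had 6186 and 7384 CPM in CMP and 1181 and 679 CPM in CQC (2.71 ± 0.25). ENO1, the other enolase, had 3961 and 5312 CPM of mRNA in CMP and 56.8 and 78.6 CPM in CQC (6.08 ± 0.25, footprints 3.02 ± 0.26). TDH2, a glyceraldehyde-3-phosphate dehydrogenase, rose by 5.31 ± 0.18 in mRNA and 2.01 ± 0.23 in footprints, GPM1, phosphoglycerate mutase, by 5.06 ± 0.19 and 2.72 ± 0.24, and CDC19, pyruvate kinase, by 4.42 ± 0.19 and 2.43 ± 0.23.

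Footprints of glycolytic genes thus differed less than their mRNA. TE fell for 9 of the 20 genes and rose for 1 (median -1.04), and with the length trend removed for 7 and 1 (median -0.98). TE differed by -4.39 ± 0.35 for ENO2, -3.26 ± 0.30 for TDH2 and -3.03 ± 0.33 for ENO1, and by -4.43, -3.10 and -3.07 with the trend removed, and all 6 values passed edgeR's test. ENO1 and ENO2 are near-identical copies, as are other isozymes here, and the counting of shared reads is not given in the sources used here, so the split between copies is uncertain. Footprint reads of ENO2 in CQC numbered 294 and 187, so both libraries held the gene.

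**Figure D3:**
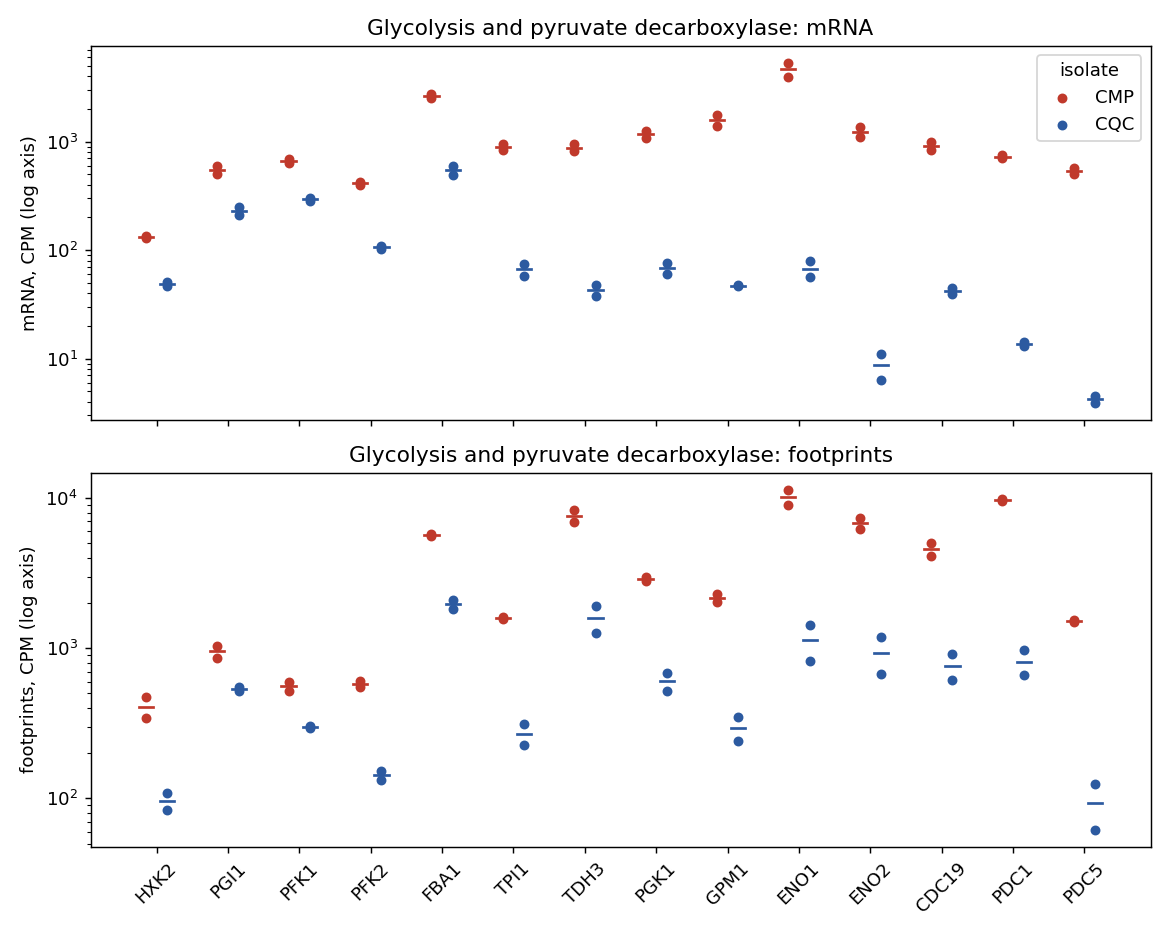
CPM (log axis) of glycolytic genes in pathway order and of pyruvate decarboxylases, in mRNA (top) and footprints (bottom); points are libraries, short lines are means, CMP is red and CQC blue. CMP is above CQC for every gene drawn, and the gap for ENO2 is wider in mRNA (1111 and 1357 CPM against 6.42 and 11 CPM) than in footprints.

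Past pyruvate, the fermentation list of 13 genes split, with 6 rises and 3 falls in mRNA (median 0.07) and 2 rises and 4 falls in footprints. Those are 46.2% and 23.1% in mRNA, against 31.4% and 27.5% of all genes, and 15.4% and 30.8% in footprints, against 14.0% and 14.5%. PDC5 and PDC1, pyruvate decarboxylases that start ethanol formation, rose. PDC5 had 508 and 575 CPM of mRNA in CMP and 4.57 and 3.88 CPM in CQC (6.98 ± 0.26, edgeR adjusted p = 1.3e-10), and 1536 and 1503 CPM of footprints in CMP against 124 and 61.7 CPM in CQC (3.89 ± 0.27). PDC1 rose by 5.71 ± 0.20 and 3.42 ± 0.23. The aldehyde dehydrogenases ALD2 and ALD6, which oxidise acetaldehyde to acetate, fell by 1.63 and 1.41 on the log2 scale in mRNA, and by 1.59 and 1.75 in footprints. Without the first CMP library, the footprint difference of ALD2 was -1.34 and did not pass. The alcohol dehydrogenase ADH5 rose in mRNA (1.44 ± 0.36) and gave 0.04 ± 0.58 in footprints.

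Genes for growth on carbon sources other than sugar ran the opposite way to glycolysis. Acetate and fats are oxidised in respiration, and the pair was chosen on its respiratory states. Calls and p-values for these genes, and for fatty acid oxidation below, are therefore not independent of that choice. Of 26 genes of gluconeogenesis, the glyoxylate cycle and carboxylate uptake, 2 rose and 19 fell in mRNA (median -1.29), and 1 rose and 17 fell in footprints (median -1.66). The falls made up 73.1% and 65.4%, against 27.5% and 14.5% of all genes. CQC was the highest of the 8 isolates for 22 of the 26 in mRNA and 23 in footprints. Over all genes tested CQC was highest for 17.6% and 25.1%. ADY2, an acetate transporter, had 5.87 and 6.57 CPM of mRNA in CMP and 194 and 204 CPM in CQC (-5.01 ± 0.33, edgeR adjusted p = 2.7e-08). ACS1, acetyl-CoA synthetase, had 153 and 94.4 CPM in CMP and 1171 and 1214 CPM in CQC (-3.30 ± 0.31, footprints -4.31 ± 0.38). The carnitine acetyltransferases CAT2 and YAT1, which carry acetyl groups between compartments, fell by 3.48 and 3.40 on the log2 scale in mRNA, and MLS1, malate synthase, fell by 3.02. Of 8 targets of the retrograde pathway, which answers loss of mitochondrial function, 7 had a negative difference in mRNA (median -1.10), given without calls because ACO1, IDH1 and IDH2 are also TCA genes. PYC1, pyruvate carboxylase, was lower in CMP, at 2710 and 1963 CPM in CMP and 7936 and 8011 CPM in CQC (-1.80 ± 0.20).

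Peroxisomal fatty acid oxidation followed in mRNA, where 1 of 15 genes rose and 10 fell (median -1.10), and less so in footprints, where 3 of 14 fell and none rose (median -0.61). The falls made up 66.7% and 21.4%, against 27.5% and 14.5% of all genes. SPS19, a dienoyl-CoA reductase, had 5.55 and 2.42 CPM of mRNA in CMP and 101 and 106 CPM in CQC (-4.71 ± 0.35, edgeR adjusted p = 6.8e-08). PXA1, of the fatty acid importer, fell by 3.08 ± 0.23, CTA1, the peroxisomal catalase, by 2.76 ± 0.23, and FOX2, the multifunctional enzyme, by 2.52 ± 0.19. In footprints SPS19 had 3 reads over both CMP libraries and 83 over both CQC libraries, a ratio of 12.9 for CQC over CMP after scaling, with a counting interval of 4.27 to 63.9. FOX2 also fell in footprints (-2.66 ± 0.42), while PXA1 (-1.09 ± 0.54) and CTA1 (-0.66 ± 0.56) did not pass edgeR's test there.

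Sugar uptake and sugar use genes showed some of the widest differences. Of the 9 sorbitol and mannitol genes, 8 rose in mRNA (median 4.38) and all 9 in footprints (median 4.06). CMP was the highest of the 8 isolates for 8 of them in either assay, against 6.03% of all genes in mRNA and 18.4% in footprints. The 9 genes took 3.87% and 5.04% of mRNA reads in CMP and 0.325% and 0.356% in CQC. HXT13, a polyol transporter, had 7099 and 8221 CPM of mRNA in CMP and 352 and 377 CPM in CQC (4.38 ± 0.24, edgeR adjusted p = 4.4e-09). Its footprints stood at 6544 and 6342 CPM in CMP and at 337 and 269 CPM in CQC (4.26 ± 0.23). SOR1, sorbitol dehydrogenase, had 1236 and 1852 CPM of mRNA in CMP and 7.57 and 3.56 CPM in CQC (8.09 ± 0.34), and its near-identical copy SOR2 had the same fold, so the copies are not separate measurements. HXT5, a hexose transporter made in slow growth, went the other way, at 143 and 147 CPM of mRNA in CMP and 6126 and 8351 CPM in CQC (-5.66 ± 0.26, edgeR adjusted p = 8.5e-10). Its footprints fell with it (-5.06 ± 0.30), and the other isolates ranged from 7.95 to 334 CPM in mRNA. Of 20 genes of maltose, galactose and sucrose use, 10 rose and 2 fell in mRNA (median 0.60). Those are 50% and 10%, against 31.4% and 27.5% of all genes. SUC2, invertase, had 5379 and 6028 CPM of mRNA in CMP and 79.4 and 95 CPM in CQC (6.01 ± 0.34).

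Stress genes fell into opposing groups. Of 28 general stress genes, 6 rose and 15 fell in mRNA (median -1.02), and none rose and 23 fell in footprints (median -2.30). The falls made up 53.6% and 82.1%, against 27.5% and 14.5% of all genes. Their summed footprints were 3.12% and 3.21% in CMP and 10.3% and 10.4% in CQC. GRE1, a hydrophilin that guards against drying, had 110 and 130 CPM of mRNA in CMP and 1674 and 1982 CPM in CQC (-3.95 ± 0.25, edgeR adjusted p = 1.9e-08). Its footprints stood at 269 and 220 CPM in CMP and at 7365 and 6104 CPM in CQC (-4.92 ± 0.32). CTT1, the cytosolic catalase, fell by 3.40 ± 0.32 in mRNA and SIP18, another hydrophilin, by 2.84 ± 0.27. FMP45, a membrane protein of the cell cortex, fell by 2.72 ± 0.32 and PAI3, an inhibitor of the vacuolar proteinase A, by 2.55 ± 0.28. TE fell for 8 of the 28 (median -1.11), or for 2 with the length trend removed. Those 2 were TFS1, an inhibitor of vacuolar carboxypeptidase Y, and YGP1, a secreted glycoprotein. TFS1 had 333 and 342 CPM of mRNA in CMP and 245 and 249 CPM in CQC, but footprints of 393 and 461 CPM in CMP and 2012 and 1854 CPM in CQC (TE -2.74 ± 0.47, or -2.37 with the trend removed). YGP1 differed by 0.61 ± 0.24 in mRNA and -1.89 ± 0.20 in footprints (TE -2.47 ± 0.31, or -2.35).

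Heat shock genes rose instead. Of 25 chaperone genes and targets of the heat shock factor, 20 rose and 1 fell in mRNA (median 1.76), and 12 rose and 4 fell in footprints (median 0.70). The rises made up 80% and 48%, against 31.4% and 14.0% of all genes. Falls in footprints (16%) were about as frequent as over all genes (14.5%). BTN2, which gathers misfolded proteins, had 3847 and 3913 CPM of mRNA in CMP and 114 and 119 CPM in CQC (5.04 ± 0.28, edgeR adjusted p = 6.2e-09). SSA4, a stress-induced Hsp70, had 3432 and 2818 CPM in CMP and 161 and 198 CPM in CQC (4.10 ± 0.25). FES1, an Hsp70 exchange factor, rose by 3.83 ± 0.23 and SIS1, an Hsp40, by 2.65 ± 0.18, and all of these also rose in footprints, though SIS1 did not without the second CQC library (0.66). SSA3, another inducible Hsp70, was the gene that fell, with 271 and 231 CPM of mRNA in CMP and 2261 and 2552 CPM in CQC (-3.28 ± 0.24). The other isolates ranged from 93.9 to 7905 CPM for SSA4 and from 22.9 to 223 CPM for SSA3. Of 33 proteasome genes 20 rose (60.6%, against 31.4% of all genes) and 1 fell in mRNA (median 0.91). In footprints 3 rose and 4 fell (median 0.00), no more often (9.09% and 12.1%) than over all genes (14.0% and 14.5%). The gene that fell in mRNA was RPN4, the activator of proteasome genes, with 369 and 268 CPM of mRNA in CMP and 938 and 811 CPM in CQC (-1.48 ± 0.19). Of 22 oxidative defence genes 9 rose and 7 fell in mRNA (median 0.19), and 3 rose and 12 fell in footprints (median -0.84). In mRNA these shares, 40.9% and 31.8%, lay near the 31.4% and 27.5% of all genes. In footprints rises (13.6%) were about as frequent as over all genes (14.0%), and falls (54.5%) were more frequent (14.5%).

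Genes of the translation machinery were higher in CMP. Of 137 cytosolic ribosomal protein genes, 135 rose and none fell in mRNA (median 1.66), and 126 rose and none fell in footprints (median 1.30). They made up 6.45% and 6.89% of mRNA reads in CMP and 2.24% and 2.15% in CQC. CQC was the lowest of the 8 isolates for 133 of the 137 in mRNA and for 135 in footprints, against 27.5% and 25.5% of all genes tested. RPL36B, of the large subunit, had 402 and 432 CPM of mRNA in CMP and 81.7 and 84 CPM in CQC (2.32 ± 0.17, edgeR adjusted p = 6.7e-08). RPL24A, also of the large subunit, rose by 2.28 ± 0.16 and RPS24A, of the small subunit, by 2.17 ± 0.17. Many ribosomal proteins have a near-identical copy, so values of single copies are uncertain. TE fell for 10 of the 137 and for none with the length trend removed (medians -0.31 and 0.12). Of 37 translation factors 31 rose (83.8%) and 1 fell in mRNA (median 0.88). Of 85 ribosome biogenesis genes 38 rose (44.7%) and 2 fell (median 0.40). Over all genes 31.4% rose in mRNA and 14.0% in footprints. In footprints 21 translation factors rose (56.8%). Of the biogenesis genes 12 rose there (14.1%, median 0.67), no more often than over all genes.

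**Figure D4:**
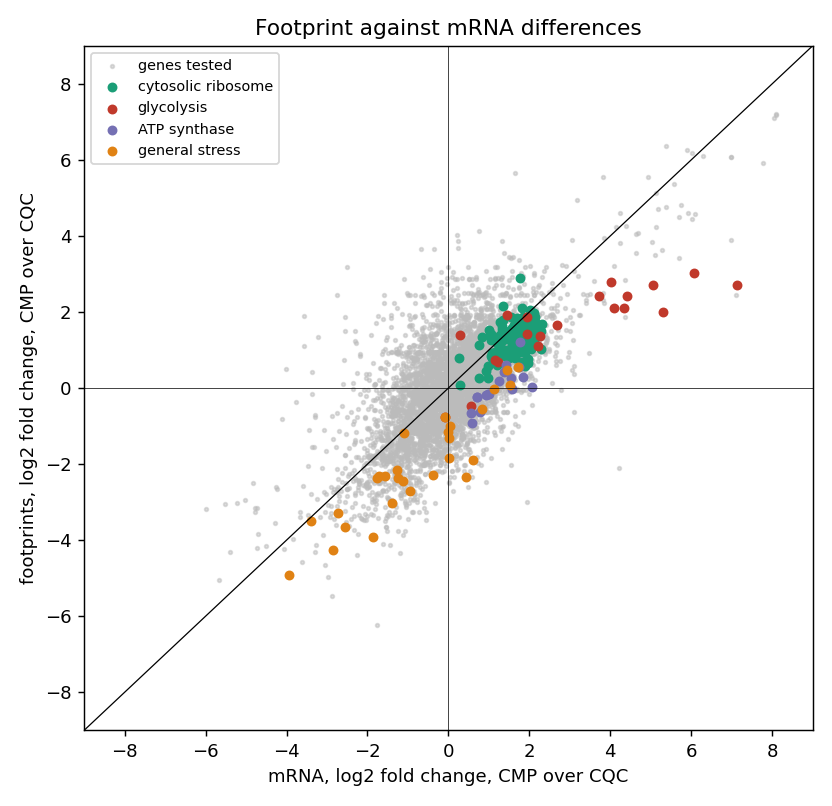
Log2 fold change (CMP over CQC) in footprints (vertical axis) against mRNA (horizontal axis) for 5173 genes tested in both assays with reads in both isolates, of which 3 lie outside the axes; the diagonal marks equal differences, and 4 groups are coloured. Ribosomal protein genes lie near the diagonal, glycolytic genes below it to the right, ATP synthase genes right of the centre near 0 in footprints, and general stress genes mostly below the diagonal.

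For the 1567 genes that averaged 20 or more reads in each assay, the slope of footprint on mRNA differences was 0.785, taken from products of different replicates. The correlation across these genes was 0.854 as a description, since genes are not independent replicates, and the slope was 0.790 without the respiratory lists.

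Thiamine genes were far higher in CMP. Of 18 thiamine genes, 14 rose and 1 fell in mRNA (median 3.12), and 15 rose and none fell in footprints (median 2.92). The rises made up 77.8% and 83.3%, against 31.4% and 14.0% of all genes. THI4, which makes the thiazole ring of thiamine (chromosome VII, 780399 to 781379), had 1099 and 1207 CPM of mRNA in CMP and 2 and 0.647 CPM in CQC, from 14 and 4 reads (9.71 ± 0.44, edgeR adjusted p = 7.5e-10). Its footprints were 2384 and 2134 CPM in CMP and 60.2 and 0 CPM in CQC, so all 15 reads in CQC came from 1 library. PHO3, the thiamine-repressed phosphatase, had 721 and 675 CPM of mRNA in CMP and 21.4 and 16.3 CPM in CQC (5.19 ± 0.20). THI5, THI12 and THI13, near-identical genes for the pyrimidine ring, rose by 5.13, 5.39 and 5.58, with shared reads uncertain.

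Of 17 zinc-responsive genes 10 rose (58.8%) and 6 fell (35.3%) in mRNA (median 0.91), against 31.4% and 27.5% of all genes. ZPS1, a cell surface protein of zinc scarcity (chromosome XV, 34658 to 35407), had 2017 and 2725 CPM in CMP and 11.1 and 6.47 CPM in CQC (8.06 ± 0.31, edgeR adjusted p = 1.8e-10). ADH4, an alcohol dehydrogenase induced by zinc scarcity, had 1143 and 1556 CPM in CMP and 36 and 28.8 CPM in CQC (5.37 ± 0.22, footprints 6.37 ± 0.38). VEL1, near ADH4 on the left end of chromosome VII (11110 to 11730), had 99.4 and 125 CPM in CMP and no mRNA read in CQC, which makes it at least 491-fold higher against a floor of 3 reads over both CQC libraries. The membrane proteins IZH4 (-5.22 ± 0.24) and IZH1 (-2.91 ± 0.39) fell. Of 29 iron genes 13 rose (44.8%, against 31.4% of all genes) and 10 fell (34.5%, against 27.5%), with a median of -0.19, so the list as a whole leaned neither way. ARN2, a siderophore transporter, had 898 and 1028 CPM in CMP and 1 read in 1 library of CQC, a ratio of 12670 with an exact 95% counting interval of 2274 to 500700. The footprint difference was smaller (5.35 ± 0.40), at 544 and 501 CPM in CMP and 16.1 and 7.26 CPM in CQC. Those CQC values came from 4 and 2 reads, more than in mRNA though from shallower libraries. ENB1, the enterobactin transporter, rose by 5.29 ± 0.27.

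Of 18 phosphate genes 4 rose (22.2%) and 9 fell (50%) in mRNA (median -0.58), against 31.4% and 27.5% of all genes. The transporters moved in both directions. PHO84, the high-affinity proton-coupled transporter, had 294 and 157 CPM in CMP and 12 and 11.2 CPM in CQC (4.25 ± 0.42, edgeR adjusted p = 9.9e-07). GIT1, which imports glycerophosphoinositol, had 35.2 and 32.7 CPM in CMP and 875 and 902 CPM in CQC (-4.73 ± 0.26), and PHO89, the sodium-coupled transporter, fell by 3.59 ± 0.32. ENA1, a sodium pump of the plasma membrane, had 88.8 and 90.4 CPM in CMP and 2342 and 2501 CPM in CQC (-4.77 ± 0.28, edgeR adjusted p = 9.2e-09), though close copies share its reads.

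Genes repressed by rich nitrogen were lower in CMP, with 15 of 22 falling and none rising in mRNA (median -1.51) and 10 of 14 falling in footprints (median -2.42). The falls made up 68.2% and 71.4%, against 27.5% and 14.5% of all genes. OPT2, an oligopeptide transporter, had 2.94 and 6.74 CPM of mRNA in CMP and 305 and 305 CPM in CQC (-6.00 ± 0.41, edgeR adjusted p = 3.3e-08). GAP1, the general amino acid permease, had 11.3 and 7.09 CPM in CMP and 173 and 181 CPM in CQC (-4.29 ± 0.29), and PUT4, the proline permease, fell by 2.79 ± 0.27. Biosynthesis went the other way: of 41 amino acid synthesis genes 25 rose and 3 fell in mRNA (median 0.57), and of 8 lysine genes 7 rose and none fell (median 1.39). Those rises were 61.0% and 87.5%, against 31.4% of all genes. LYS9, saccharopine dehydrogenase, had 141 and 187 CPM in CMP and 20.6 and 18 CPM in CQC (3.08 ± 0.18, edgeR adjusted p = 8.9e-09).

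Of 26 ergosterol genes 4 rose and 17 fell in mRNA (median -0.65), and 1 rose and 18 fell in footprints (median -1.03). The falls made up 65.4% and 69.2%, against 27.5% and 14.5% of all genes. UPC2, the activator of sterol genes, had 106 and 110 CPM of mRNA in CMP and 797 and 716 CPM in CQC (-2.82 ± 0.21, edgeR adjusted p = 6.7e-08). HMG2, an HMG-CoA reductase, fell by 1.62 ± 0.16 and ERG3, the C-5 desaturase, by 1.19 ± 0.13. At the surface, 14 of 19 cell wall genes rose and 3 fell in mRNA (median 1.34), against 31.4% and 27.5% of all genes. In footprints 9 rose and 4 fell (median 0.69), against 14.0% and 14.5%. Summed wall footprints were lower in CMP (1.69% and 1.63%) than in CQC (2.92% and 2.57%). Of 9 daughter separation genes 8 rose in mRNA (median 1.95) and 4 in footprints, or 3 with the length trend removed. TIP1, a mannoprotein, was the widest fall of the wall list, at 19.6 and 17.8 CPM in CMP and 417 and 426 CPM in CQC (-4.51 ± 0.18). FLO11, the flocculin of biofilms, had 61.4 and 67.3 CPM in CMP and 227 and 207 CPM in CQC (-1.77 ± 0.28). Of the 6 flocculin genes 2 rose and 2 fell in mRNA (33.3% each), near the 31.4% and 27.5% of all genes. In footprints 3 of the 5 tested rose (60%) and 1 fell (20%), against 14.0% and 14.5%. FLO1 rose by 2.09 ± 0.44 in mRNA and FLO9 by 1.52 ± 0.37. In footprints FLO1 (2.63), FLO9 (2.42) and FLO5 (4.13) rose.

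**Figure D5:**
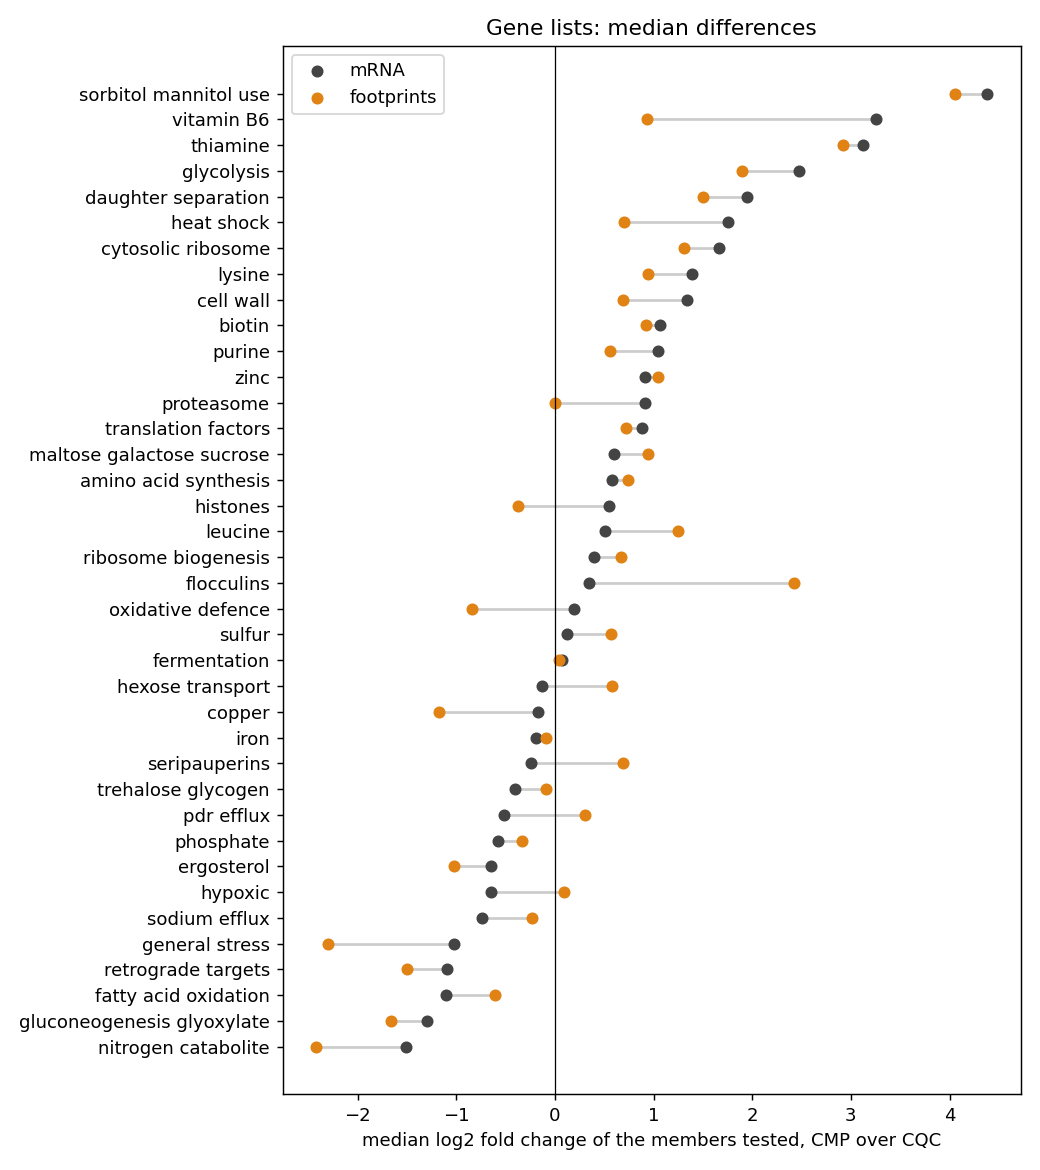
Median log2 fold change (CMP over CQC, horizontal axis) of the members tested in each gene list, in mRNA (grey) and footprints (orange), with genes that had no read in an isolate set at their bound. Sorbitol and mannitol, vitamin B6, thiamine and glycolysis genes lie at the top (4.38, 3.25, 3.12 and 2.47 in mRNA), though 3 of the 7 vitamin B6 genes were lower in CMP, and nitrogen-repressed and gluconeogenic genes at the bottom (-1.51 and -1.29).

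Among the widest TE rises, HXT2 and SNF3 had less mRNA in CMP without fewer footprints. HXT2, a high-affinity hexose transporter, had 6.85 and 6.05 CPM of mRNA in CMP and 94.2 and 39.5 CPM in CQC. Its footprints, at 296 and 311 CPM in CMP and 253 and 152 CPM in CQC, were not called different. TE rose by 3.85 ± 0.67 (edgeR adjusted p = 0.00056, or 3.61 with the length trend removed). With mRNA thinned to footprint depth, neither the mRNA nor the TE difference of HXT2 passed edgeR's test. SNF3, the high-affinity glucose sensor, had 89.7 and 79.4 CPM of mRNA in CMP and 403 and 399 CPM in CQC, with a TE difference of 2.69 ± 0.43, or 2.11 with the length trend removed. OSH2, an oxysterol-binding protein, was level in mRNA (-0.19 ± 0.18), and its footprints, at 820 and 3186 CPM in CMP and 185 and 240 CPM in CQC, differed widely between the replicates of CMP. Its TE rise of 3.29 ± 0.58, or 2.46 with the length trend removed, was 1.71 without the second CMP library and then did not pass edgeR's test.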

How the data were processed

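The series measured mRNA and ribosome footprints (RNase I digestion) of 8 isolates, 2 libraries each per assay. The values used are deposited read counts per open reading frame. Per the submitters' processing notes, the authors used CASAVA 1.8, STAR 2.7.0a and the sacCer3 genome; the counting tool, and how it treats reads that match several genes, is not given in the sources used here. Beside each count the deposited files hold a whole number per frame that was taken as its length (other). Names and coordinates came from the RefSeq R64 gene table, which matched 6008 of 6696 frames; the unmatched frames held 0.331% of the reads of CMP and CQC.

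Counts were fitted in R 4.3.3 with edgeR 4.0.16 (TMM scaling, quasi-likelihood test, filter at a minimum count of 10, Benjamini-Hochberg adjustment over all genes tested, threshold 0.05). All 16 libraries of an assay, or all 32 for TE, entered the fit, so the spread is shared over 8 isolates. TE was the interaction of assay and isolate. Alternatives were DESeq2 1.42.0, other scaling, filters, mRNA thinned to footprint depth, removal of a loess trend on length, a replicate block, fewer libraries and each replicate left out.

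The isolates, the gene lists and the genes of interest were chosen with earlier results of these data known. Named genes are the 10 widest rises and falls in mRNA, the 6 widest TE changes each way, those called in opposite directions in both assays, up to 5 per list by mRNA difference, and a few fixed genes. Replicates of an isolate differed by more than sampling noise (chi-square per degree of freedom 16.1 and 9.14 in mRNA and 2.11 and 2.04 in footprints, CMP and CQC). Read totals limit precision, and intervals cover counting error only. With a floor of 3 reads, genes without reads in an isolate get a bound.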

Additional observations from a re-analysis of the deposited data

Results flagged for a closer look

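Of the 40 genes whose mRNA and footprints were called in opposite directions, 9 of those with the widest TE differences had reads in both isolates and a TE call by edgeR's quasi-likelihood test. SSY1, an amino acid sensor, had 66.7 and 53.1 CPM of mRNA in CMP and 183 and 177 CPM in CQC, and 586 and 541 CPM of footprints in CMP and 104 and 185 CPM in CQC (TE 3.45). COX11, a copper chaperone of cytochrome c oxidase, had 53.2 and 50.5 CPM of mRNA in CMP and 98.6 and 126 CPM in CQC, and 358 and 661 CPM of footprints in CMP and 116 and 112 CPM in CQC (TE 3.13). Neither gene overlapped between the isolates in either assay. RAD5, of DNA damage tolerance, had 20.4 and 20.9 CPM of mRNA in CMP and 54.1 and 45.1 CPM in CQC (TE 3.41), and GID12, a regulator of the ubiquitin ligase that degrades gluconeogenic enzymes, had 42.1 and 38.9 CPM in CMP and 112 and 103 CPM in CQC (TE 3.31). The remaining rises in TE were of RIB2 (3.26, from 5 and 2 footprint reads in CMP and 1 and 1 in CQC), the kinase MPS1 (2.8), topoisomerase TOP2 (2.79) and ECM5 (2.63). MRPS16, a mitochondrial ribosomal protein, was the fall (-2.68), from 3 and 2 footprint reads in CMP and 17 and 21 in CQC. Leaving out single libraries ended some of these calls. Footprint calls were lost by SSY1 without the first CQC library (1.51), by GID12 without the second CMP library (1.14) or the second CQC library (1.41), by MRPS16 without either CMP library (-1.95 and -1.96), and by ECM5 without any single one (0.9 to 1.08), and by RIB2 without the first CMP library or either CQC library (2.25 to 2.82). MPS1 lost both its footprint and its TE call, with a TE difference of 1.2 without the second CMP library and 2.49 without the first CQC library, and TOP2 an mRNA difference of -0.42 without the first CMP library and -0.54 without the first CQC library, none of which passed. The TE call of MRPS16 was lost without the second CMP library (-2.65), and that of RIB2 without any single one (2.71 to 3.44). With the length trend removed, the TE differences were 2.92 for SSY1, 3.37 for COX11, 2.67 for RAD5, 2.9 for GID12, 2.35 for MPS1, 1.96 for TOP2, 1.79 for ECM5 and -2.23 for MRPS16, all of which passed. RIB2 then lost both its footprint call (2.53) and its TE call (2.98), and ECM5 lost its footprint call (0.32), so neither was an opposite call any more. COX11 and MRPS16 belong to the respiratory lists, on which the isolates were chosen, so their values are a description. These genes were picked for their opposite calls, so their number carries no test.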

How the results depend on the processing

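Counts of genes called in mRNA and footprints stayed within 1.5 times under the alternatives other than thinning of mRNA to footprint depth, which left 709 genes higher and 691 lower in mRNA. TE counts moved. Beside 168 higher and 259 lower, they were 74 and 58 with the length trend removed, 39 and 81 with mRNA thinned, 134 and 423 with size factors by relative log expression, 143 and 427 at a minimum count of 30, and 144 and 550 with the libraries of CMP and CQC alone. The median TE difference of all genes moved with them, and was -0.07 at first, -0.24 with those size factors, -0.25 at the higher minimum and -0.37 with the 8 libraries alone. Leaving out each replicate gave 1589 to 1718 genes higher and 1426 to 1481 lower in mRNA, 529 to 602 and 554 to 664 in footprints, and 34 to 117 and 61 to 274 in TE. The cause was not tested.

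Of the 136 genes named, RIB2 turned direction in mRNA when thinned (0.0765). THI4 turned in TE without the first library of CQC, with values from -4.18 to 5.45 as each replicate was left out. No other named gene with a call turned under the alternatives run. The length trend removal ended the TE call of 21 named genes and thinning that of 22.

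Replicate numbers were not taken as pairs. Deviations of CMP and CQC libraries of the same number correlated at -0.138 in mRNA and 0.0877 in footprints. Within an isolate, mRNA and footprint libraries of the same number correlated at 0.255 in CMP and 0.163 in CQC, and over all 8 isolates from 0.0243 in BAN to 0.615 in CPI, a hint of pairing across assays that the labels do not state. A replicate block gave 1978 genes higher and 1729 lower in mRNA, 742 and 766 in footprints, and 249 and 473 in TE. With the numbers crossed, a block chosen after seeing the data gave 1948 and 1708 in mRNA and 745 and 757 in footprints. Footprint depth, 99809 reads in the shallowest library, limits what footprints and TE could show.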

Other observations

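YRF1-1, a helicase gene of the telomeric Y' element, had no mRNA read in CMP and 70.4 and 61.2 CPM in CQC, at least 262-fold lower against a floor of 3 reads over both CMP libraries. The other 6 isolates ranged from 1.46 to 334 CPM of mRNA on average. Footprints of YRF1-1 did not fall with its mRNA. With mRNA thinned to footprint depth, its difference was -11.7 in mRNA and 13.1 in TE, and neither passed edgeR's test. Without an mRNA read in CMP, the size of these values carries no meaning, and why the assays parted was not tested. YRF1-1 was chosen by the rule for named genes, and its near-identical copies share reads, so the copies are not separate values.

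THI4, ZPS1 and VEL1 had 15, 12 and 6 footprint reads in the first footprint library of CQC and none in the second. All these genes had high footprint levels in both CMP libraries. Whether reads of another library entered the first one was not tested.

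IMA3 and IMA4, near-identical isomaltase genes, were among the 10 widest rises in mRNA. Of 7 vitamin B6 genes 4 rose and 1 fell (median 3.25 in mRNA and 0.93 in footprints), and their summed mRNA was level, at 0.0878% and 0.0855% of reads in CMP and 0.0853% and 0.0883% in CQC. In mRNA, of 6 biotin genes all 6 rose (median 1.06), and of 15 purine genes 10 rose and 1 fell (median 1.04). Over all genes tested in mRNA, 31.4% rose and 27.5% fell.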
